A study of Homo sapiens with 6 samples.

Results

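F-box proteins are the exchangeable substrate receptors of SCF ubiquitin ligases, and their transcripts were followed here in HCT116 cells after knockdown of the ribosome assembly factor PNO1. A probe set was a member if the platform's gene table gave it a single symbol that began with FBXO, FBXL or FBXW and a number, or the symbol SKP2, BTRC, SKP1, CUL1 or RBX1. This gave 162 of the 49395 probe sets of the array and 68 of 18132 genes. The core of the ligase had 3 genes and 7 probe sets, the FBXW group with BTRC 11 genes and 25 probe sets, the FBXL group with SKP2 18 genes and 34 probe sets, and the FBXO group 35 genes and 95 probe sets. The antisense transcript FBXW7-AS1 had 1 probe set. In RefSeq, 64 of the genes code for protein, and FBXL9P, FBXL21P and FBXW4P1 are pseudogenes.

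In an SCF ligase the cullin CUL1 is a scaffold that holds the RING protein RBX1, which recruits the ubiquitin-charged enzyme, at one end and the adaptor SKP1 at the other. SKP1 binds the F-box of a receptor, and the rest of the receptor (WD40 repeats in FBXW, leucine-rich repeats in FBXL, other domains in FBXO) picks the substrate, often only after it has been phosphorylated. SCF ligases are best known for timing the cell cycle, since SKP2, FBXW7 and the paralogs BTRC and FBXW11 control the turnover of CDK inhibitors, cyclins, MYC, beta-catenin and the NF-kappaB inhibitor, and FBXW7 is often mutated in colorectal cancer.

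HCT116 is a human colorectal cancer line of epithelial origin. The cells received a lentivirus with a short hairpin RNA against PNO1 (sh-PNO1) or a control hairpin (sh-Ctrl), and total RNA was taken after 72 h, with 3 samples per group and 1 Affymetrix expression array per sample. A single hairpin per group is named in the labels. PNO1 is a nucleolar protein needed for maturation of the small ribosomal subunit. Whether replicates of a group were grown as separate cultures is not stated, so a p-value reflects nothing beyond the variation among these 6 arrays, and that variation may be technical.

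The promoters of FBXO4, FBXO5 and SKP2 are shown first, because these 3 genes encode cell cycle receptors or regulators and had probe sets among the members with the largest differences. Each window runs from 250 bases before to 50 bases after an annotated transcription start of RefSeq, build GRCh38.p14, 300 bases in all, read 5′ to 3′ on the strand of the gene. The positions are chr5:41925031-41925330 (plus strand) for FBXO4, chr6:152983530-152983829 (minus strand) for start 1 of FBXO5, chr6:152982992-152983291 (minus strand) for start 2 of FBXO5 and chr5:36151861-36152160 (plus strand) for SKP2. Capitals mark matches, on either strand, to the E2F words TTTCCCGC, TTTCGCGC, TTTGCCGC and TTTGGCGC, the box CCAAT and the cell cycle element word TTTGAA.
FBXO4 start 1: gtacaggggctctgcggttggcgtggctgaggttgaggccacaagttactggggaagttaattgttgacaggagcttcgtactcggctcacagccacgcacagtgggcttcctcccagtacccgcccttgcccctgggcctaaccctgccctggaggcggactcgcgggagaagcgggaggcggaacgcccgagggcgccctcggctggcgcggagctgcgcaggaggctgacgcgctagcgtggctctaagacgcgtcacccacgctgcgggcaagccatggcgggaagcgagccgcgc
FBXO5 start 1: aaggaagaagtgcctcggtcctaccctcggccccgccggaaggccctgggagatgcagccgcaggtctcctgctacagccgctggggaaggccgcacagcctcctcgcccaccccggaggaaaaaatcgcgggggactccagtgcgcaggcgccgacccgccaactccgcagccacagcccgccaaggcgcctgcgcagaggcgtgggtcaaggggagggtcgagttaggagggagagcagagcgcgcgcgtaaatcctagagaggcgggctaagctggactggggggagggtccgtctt
FBXO5 start 2: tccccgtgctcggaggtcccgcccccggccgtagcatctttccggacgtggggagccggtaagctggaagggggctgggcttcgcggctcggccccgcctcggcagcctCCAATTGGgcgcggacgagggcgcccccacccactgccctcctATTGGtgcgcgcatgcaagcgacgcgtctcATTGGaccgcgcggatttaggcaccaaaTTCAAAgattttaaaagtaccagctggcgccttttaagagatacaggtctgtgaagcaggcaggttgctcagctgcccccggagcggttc
SKP2 start 1: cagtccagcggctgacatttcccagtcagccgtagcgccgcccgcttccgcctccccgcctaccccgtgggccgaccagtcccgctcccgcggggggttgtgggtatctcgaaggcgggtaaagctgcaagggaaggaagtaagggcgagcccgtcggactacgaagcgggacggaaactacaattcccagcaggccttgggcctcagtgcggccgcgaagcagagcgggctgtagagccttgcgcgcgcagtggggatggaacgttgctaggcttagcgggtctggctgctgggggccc
Of these 4 windows only the second of FBXO5 held matches. It held 4 CCAAT matches, of which the first, on the gene's strand at -141, and the second, on the reverse strand at -138, overlap. The other two lay on the reverse strand at -98 and -68. The same window held TTTGAA on the reverse strand from -40 to -35 before the start. Among all 35116 promoter windows of this length, 3.31% had one of the E2F words, 34.6% had CCAAT and 15.2% had TTTGAA, so CCAAT is a common match. Of the 68 member genes 51 had a promoter in the table, and 19 of these (37.3%) held CCAAT in a window, against 39.7% of all genes. A match is a run of letters and not a measured binding site, and its absence says only that these letters do not occur in this window.

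The arrays were alike within each group. Median intensities were 25.6 to 25.9, and log2 values over all probe sets correlated at 0.9981 to 0.9987 within a group and 0.9916 to 0.9929 between groups. The targeted gene was low in the libraries labelled as its knockdown. The brightest PNO1 probe set read 535, 535 and 532 in sh-Ctrl and 105, 108 and 105 in sh-PNO1, 19.8% of the control mean, and the other two fell to 29.1% and 28.7%. The log2 difference was -2.33 ± 0.041 SE (limma adjusted p = 3.32e-07), and an exact two-sided permutation test gave p = 0.1, the smallest value that 3 arrays against 3 can give. The epithelial markers EPCAM, KRT8, KRT18 and CDH1 were bright in both groups, whereas VIL1, LGALS4 and CDH17 had group means of 4.38 to 11.1, in the range of the background probe sets. Of the 9 epithelial markers CDH1 passed at its brightest probe set (0.31), and at 1 of 2 in all. Away from the brightest, 1 of 8 probe sets of KRT8 passed as higher and 1 of 2 of KRT18 as lower. No fibroblast (0 of 6), leukocyte (0 of 5) or endothelial (0 of 4) marker passed in limma at its brightest probe set, with 2, 1 and 0 at an unadjusted p under 0.05, and the summed intensities of these lists spanned 61.2 to 64.4, 72.2 to 74.1 and 80.4 to 89.3 in sh-Ctrl and 60.5 to 65.0, 74.2 to 79.3 and 86.4 to 90.3 in sh-PNO1. At a dimmer probe set COL1A1, COL3A1 and VWF passed as higher and CD68 as lower, at 1 probe set each. As these are bulk samples, fewer cells of a type and less RNA per cell cannot be told apart.

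Over all members, more probe sets passed as higher than as lower after the knockdown. A probe set passed at an adjusted p under 0.05 in limma, fitted on log2 intensity over all 49293 probe sets that are not controls. Of the 162 member probe sets 58 (35.8%) passed, 42 higher and 16 lower in sh-PNO1, and 75 had an unadjusted p under 0.05. Over all probe sets 28.0% passed, 14.8% higher and 13.2% lower. Bright probe sets passed more often, and members were brighter than average, with 108 of them above the median intensity of 25.7. Among probe sets above that median 45.7% passed over the array and 47.2% of the members (51 of 108), so the share of members that changed was near the background. The split by direction differed more, with 34.3% of these brighter members higher and 13.0% lower, against 24.5% and 21.2% over the array. No test of this split was made, since the members were chosen with earlier results of these data known. The median log2 difference was 0.058 over the members and 0.012 over all probe sets.

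**Figure D1:**
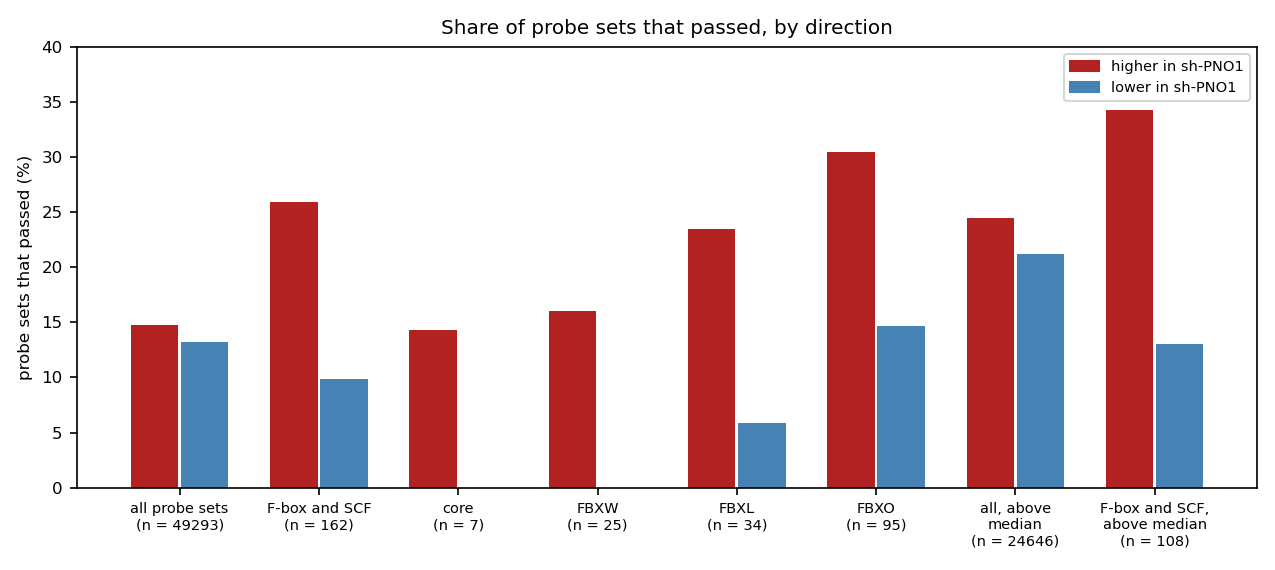
Percent of probe sets that passed (limma, adjusted p under 0.05), drawn as bars from 0, red for higher and blue for lower in sh-PNO1, for all probe sets, the F-box and SCF members, their groups, and both sets above the median intensity. Members stand at 25.9% higher and 9.88% lower against 14.8% and 13.2% for all probe sets, and the FBXO group holds most of the lower ones.

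Counted by gene at the brightest probe set, 29 of 68 members passed (42.6%), 21 higher and 8 lower, against 31.6% of all genes (18.4% higher, 13.2% lower). The FBXO group carried most of these, with 22 of 35 genes (14 higher, 8 lower). In the FBXL group 6 of 18 passed, each higher, in the FBXW group 1 of 11 (FBXW11), and in the core 0 of 3 in limma, with 1 of the 3, SKP1, at an unadjusted p under 0.05. Most differences were small: 13 member probe sets (8.02%, against 5.94% of all probe sets) passed with a log2 difference of at least 0.5 in size, 8 higher and 5 lower. Over the array 1091 probe sets passed as higher at this size and 1839 as lower. The groups did not overlap in 73 member probe sets (45.1%), against 40.2% over the array. Among probe sets above the median intensity, 10.2% of the members and 10.4% over the array passed at this size. The groups did not overlap in 59.3% and 61.3% of these. The shares by gene were not set against genes of equal brightness.

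**Figure D2:**
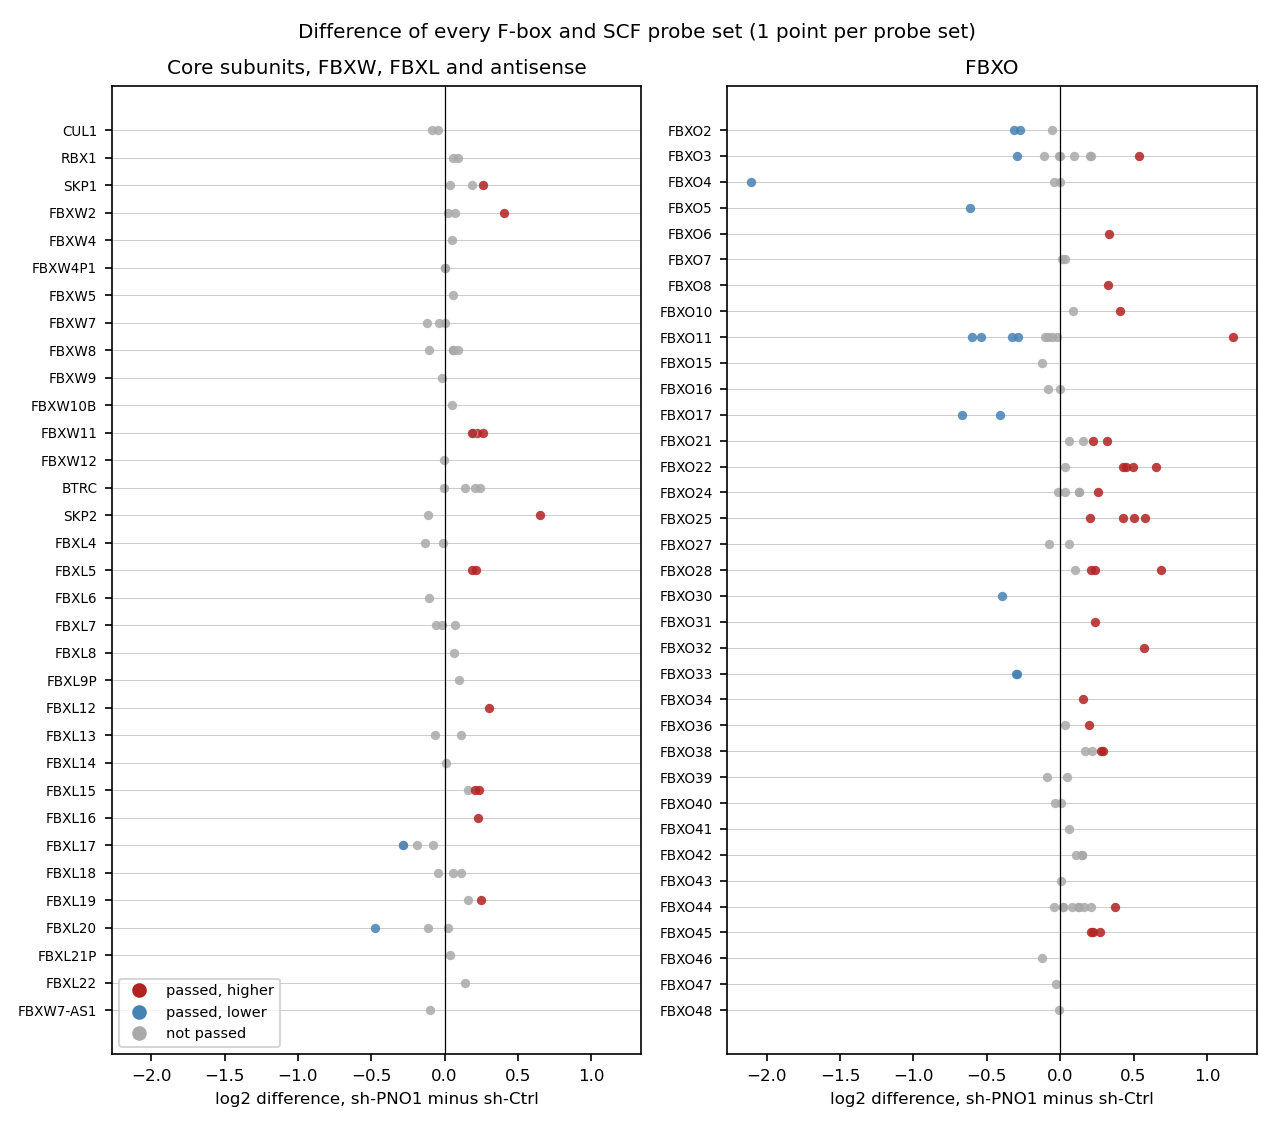
Log2 difference (sh-PNO1 minus sh-Ctrl) of each of the 162 member probe sets, 1 point each, by gene, with the core, FBXW, FBXL and antisense genes on the left and FBXO on the right. Red and blue points passed and grey points did not. Core and FBXW points lie between -0.12 and 0.41, FBXO4 reaches -2.11, and FBXO11 has points on both sides.

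Of the core subunits CUL1 and RBX1 did not pass at any probe set, and SKP1 passed at 1 of 3. CUL1 read 574, 534 and 572 in sh-Ctrl and 549, 498 and 534 in sh-PNO1 at its brightest probe set, with a log2 difference of -0.089 (95% interval -0.22 to 0.039, limma adjusted p = 0.284), and its other probe set stood at -0.042. The 2 groups of arrays overlapped. RBX1 read 694, 685 and 700.3 against 745, 711 and 711, a difference of 0.059 (interval -0.041 to 0.16, limma adjusted p = 0.362), and 0.089 at the other. Its 3 sh-PNO1 arrays were all above the sh-Ctrl arrays at the first of these, but neither passed. SKP1 is the adaptor that every F-box receptor needs. The probe set that passed read 110.2, 112 and 118 in sh-Ctrl and 136, 131 and 141 in sh-PNO1 and rose by 0.26 ± 0.050 SE (limma adjusted p = 0.00528). The brightest read 392, 427 and 423 against 521, 473 and 425 and overlapped between groups (log2 difference 0.19, limma adjusted p = 0.112). Read by gene, SKP1 passed as higher in 5 of 19 alternatives: with a trend and robust prior (adjusted p = 0.0438), with equal housekeeping means (0.23, 0.0331), without sh-PNO1 replicate 3 (0.26, 0.0344), with its probe sets averaged (0.16, 0.0231) and without the suffixes _x_at and _s_at (0.26, 0.00627), where the probe set that passed is read. The third, at intensities of 4.52 to 5.29, differed by 0.036.

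Among the WD40 receptors, FBXW11 was higher and its paralog BTRC did not pass. Both recognise a phosphorylated degron in beta-catenin and the NF-kappaB inhibitor. FBXW11 read 297, 283 and 268 in sh-Ctrl and 359, 320.0 and 339 in sh-PNO1 at its brightest probe set, without overlap. It rose by 0.26 ± 0.060 SE (limma adjusted p = 0.0128), and 2 more of its 4 probe sets rose, by 0.22 and 0.18, while the fourth stood at 0.20 (adjusted p = 0.0616). These 3 calls depended on single arrays. The brightest went to an adjusted p of 0.0504 without sh-Ctrl replicate 3, the second to at most 0.0707 without sh-Ctrl replicate 1 or 3 or sh-PNO1 replicate 1 or 2, and the third to at most 0.139 without any array other than sh-PNO1 replicate 3.

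BTRC did not pass at any of 4 probe sets. The brightest read 126, 126 and 129 in sh-Ctrl and 125, 129 and 128 in sh-PNO1, with the groups overlapping, a log2 difference of -0.0020 (95% interval -0.097 to 0.093, limma adjusted p = 0.979). The other three stood at 0.21, 0.14 and 0.24 (adjusted p = 0.101, 0.251 and 0.063). With its probe sets averaged, BTRC passed as higher, by 0.15 (adjusted p = 0.0165). The difference between the changes of BTRC and FBXW11 was not tested.

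FBXW7, the receptor for MYC, cyclin E and JUN, did not pass at any of 3 probe sets. The brightest read 179.6, 178 and 162 in sh-Ctrl and 166, 168 and 173 in sh-PNO1, with overlap between the groups, a log2 difference of -0.036 (95% interval -0.16 to 0.090, limma adjusted p = 0.675). The others stood at -0.12 and 0.0050. Its antisense transcript FBXW7-AS1 lay at intensities of 5.44 to 6.62 and differed by -0.097 (adjusted p = 0.428). FBXW2 was the other receptor of this type with a call. Its probe set 11725159_a_at read 92.2, 82.7 and 87.9 in sh-Ctrl and 117, 111 and 121 in sh-PNO1 and rose by 0.41 ± 0.057 SE (limma adjusted p = 0.00115), whereas its brightest and dimmest probe sets stood at 0.071 and 0.022. FBXW4, FBXW5, FBXW8, FBXW9, FBXW10B and FBXW12 did not pass at any probe set, and the 2 FBXW4P1 probe sets held the same value as each other on every array, so these are 1 measurement although counted as 2 probe sets.

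In the leucine-rich repeat group SKP2 had the largest difference. SKP2 targets the CDK inhibitor CDKN1B for destruction together with the cofactor CKS1B. Its brighter probe set read 64.7, 64.7 and 60.2 in sh-Ctrl and 101, 99.2 and 97.7 in sh-PNO1, so that the lowest knockdown array was far above the highest control. It rose by 0.65 ± 0.047 SE (limma adjusted p = 4.4e-05, n = 3 arrays per group). The second probe set, at 3.68 to 4.34, in the range of the low background probe sets, differed by -0.12 (adjusted p = 0.193), and the mean of both by 0.27 (adjusted p = 0.0007). The SKP2 promoter window printed above held none of the searched words.

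Other calls in this group were smaller. FBXL5, the iron sensor that removes iron regulatory protein, rose at both probe sets, by 0.22 and 0.19. FBXL12 rose by 0.30 and FBXL16 by 0.23 on their only probe sets. FBXL15, which targets the ubiquitin ligase SMURF1, rose at 2 of 3 probe sets, by 0.24 and 0.20, and FBXL19 at 1 of 2, by 0.25. The FBXL19 call was lost without any single array other than sh-PNO1 replicate 2 (adjusted p reaching 0.124). The second call of FBXL5 was lost without sh-Ctrl replicate 2 or 3 or sh-PNO1 replicate 3 (reaching 0.0602), and that of FBXL15 without any sh-Ctrl array or sh-PNO1 replicate 3 (reaching 0.0791).

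FBXL20 and FBXL17 were the FBXL genes with a lower call. FBXL20 fell at 1 of 3 probe sets, which read 45.8, 45.3 and 44.6 in sh-Ctrl and 30.9, 33.4 and 33.4 in sh-PNO1, by 0.47 ± 0.048 SE (limma adjusted p = 0.000234), and its brightest stood at -0.12. FBXL17, which takes apart mispaired BTB-domain dimers, fell by 0.29 at 1 of 4 probe sets, at intensities of 3.36 to 4.44, and this call was lost with 16 added to each intensity (adjusted p = 0.0699). FBXL4, FBXL6, FBXL7, FBXL8, FBXL13, FBXL14, FBXL18, FBXL22 and the pseudogenes FBXL9P and FBXL21P did not pass at any probe set.

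FBXO4 had the largest difference of all members. It is a receptor reported for cyclin D1 and for the telomere protein TERF1. Its probe set 11756268_a_at read 105, 103 and 98.8 in sh-Ctrl and 24.7, 26.7 and 20.2 in sh-PNO1. The groups were far apart, with means of 102 ± 2.95 and 23.9 ± 3.34 (SD, n = 3), so that 23.2% of the control signal was left. The fall was 2.11 ± 0.096 SE on the log2 scale (limma adjusted p = 5.69e-06). The other 2 probe sets of FBXO4 differed by -0.045 and -0.0032, and the mean over the 3 by -0.72 (adjusted p = 6.47e-06). They lay at 7.59 to 8.81 and 4.59 to 4.62, in the range of the background probe sets, and the second had 1 value, 4.59, on 5 of 6 arrays. By the platform's table these 2 were designed on 1 RefSeq transcript record and the probe set that fell on another record. Of the targets reported for FBXO4, CCND1, which encodes cyclin D1, fell by 0.39 at its brightest probe set and at 4 of 4 in all. TERF1 stood at 0.077 at its brightest probe set (limma adjusted p = 0.241), and 1 of its 3 probe sets passed as higher.

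FBXO5 fell to 65.3% of its control signal. FBXO5, also called EMI1, is unusual among these proteins in that it inhibits another ligase, the anaphase-promoting complex. Its only probe set read 380.3, 391 and 377 in sh-Ctrl and 241, 263 and 245 in sh-PNO1, with a wide gap between the groups. It fell by 0.62 ± 0.049 SE (limma adjusted p = 7.12e-05). The suffix of this probe set (_s_at) marks a design that can match several transcripts, also of different genes.

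**Figure D3:**
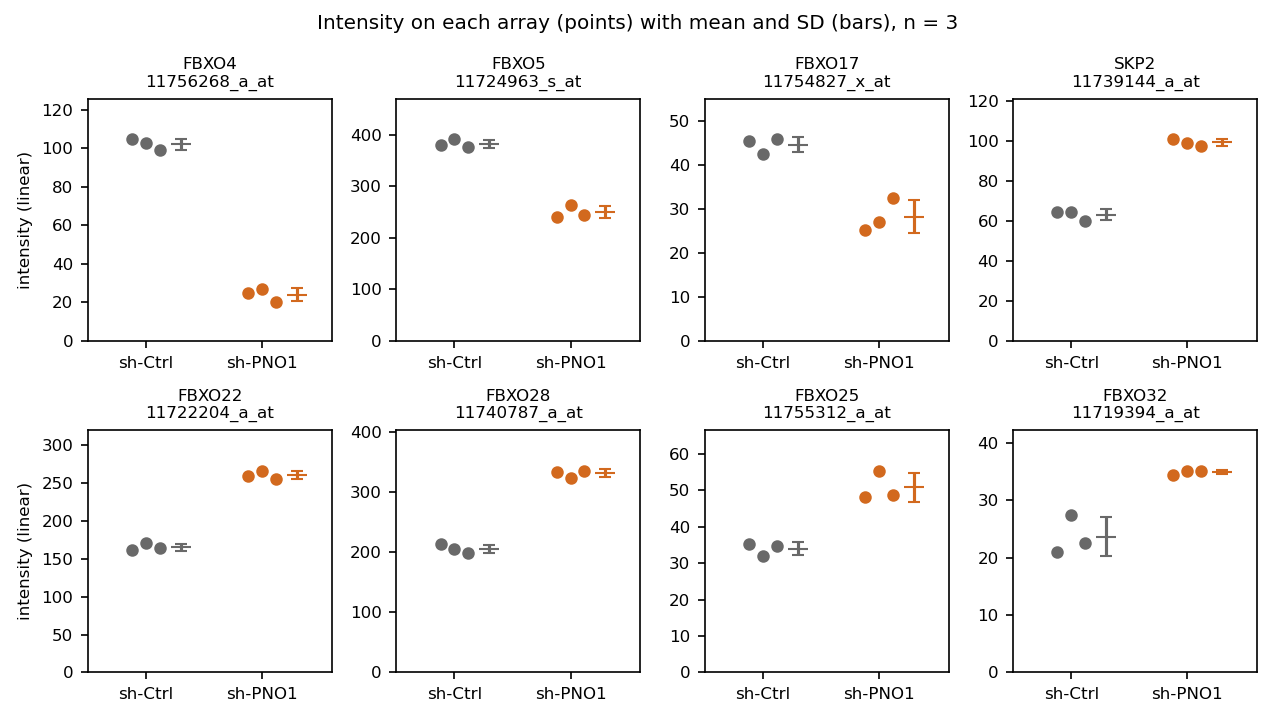
Linear intensity on each array (points, grey for sh-Ctrl and orange for sh-PNO1, axes from 0) with mean and SD (n = 3) for the probe set with the largest difference of 8 F-box genes. In each panel the groups are apart, the knockdown arrays being lower for FBXO4, FBXO5 and FBXO17 and higher for SKP2, FBXO22, FBXO28, FBXO25 and FBXO32.

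FBXO2, FBXO6, FBXO17, FBXO27 and FBXO44 share a C-terminal domain that in several of them binds sugar chains of glycoproteins, and they did not move together. FBXO17 read 45.3, 42.5 and 45.8 in sh-Ctrl and 25.2, 27.1 and 32.4 in sh-PNO1 and fell by 0.67 ± 0.089 SE (limma adjusted p = 0.000944). Its second probe set fell by 0.41, a call lost without sh-PNO1 replicate 1 (adjusted p = 0.0505), and both carry the suffix _x_at of designs that can match other genes. With 16 added to each intensity these FBXO17 differences were -0.46 and -0.20. FBXO2 fell at 2 of 3 probe sets, by 0.28 and 0.32. FBXO6 rose by 0.33 on its only probe set, from 108 ± 6.20 to 136 ± 0.843 (SD, n = 3). FBXO44 rose at 1 of 9 probe sets, by 0.37, and the other 8 stood between -0.039 and 0.21. FBXO27 did not pass at either probe set (-0.076 and 0.061).

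FBXO22, FBXO28 and FBXO25 were higher at most of their probe sets. FBXO22, which takes part in turnover of KDM4 histone demethylases, read 364, 351 and 362 in sh-Ctrl and 499, 482 and 488 in sh-PNO1 at its brightest probe set, a rise of 0.45 ± 0.042 SE (limma adjusted p = 0.000161). The probe set with the largest change read 162, 170.3 and 164 against 259.5, 266 and 255 and rose by 0.66. The groups were far apart in both. Of its 5 probe sets 4 passed, the other two by 0.50 and 0.43, and the fifth, at 5.03 to 5.84, differed by 0.034.

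FBXO28, which ubiquitylates MYC, rose most at a probe set that read 213, 205 and 199 in sh-Ctrl and 334, 324 and 335 in sh-PNO1, by 0.69 ± 0.046 SE (limma adjusted p = 2.95e-05). Its brightest probe set rose less, by 0.24, another rose by 0.21, and the last stood at 0.10. FBXO25 rose at 4 of 4 probe sets, by 0.20 to 0.58. The brightest of these read 35.3, 31.9 and 34.8 in sh-Ctrl and 48.3, 55.3 and 48.7 in sh-PNO1, without overlap (limma adjusted p = 0.000492). The other FBXO25 probe sets were dim, with group means of 16.55 to 27.47, below the background probe set named GC19 (28.4). With 16 added to each intensity the FBXO25 rises were 0.11 to 0.42, and the calls were kept. The smallest call of FBXO28 was lost without sh-Ctrl replicate 1 or 3 or sh-PNO1 replicate 1 or 2 (adjusted p reaching 0.0706), and that of FBXO25 without sh-Ctrl replicate 1 or 2 (reaching 0.0681). FBXO32, also called atrogin-1 and known for muscle wasting, read 21.1, 27.5 and 22.5 in sh-Ctrl and 34.5, 35.1 and 35.2 in sh-PNO1 on its only probe set. The control arrays were spread more widely than the knockdown arrays, and the rise was 0.57 ± 0.091 SE (limma adjusted p = 0.00227). FBXO32 was dim too, with group means of 23.67 and 34.9, and with 16 added to each intensity its rise was 0.36.

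FBXO11 and FBXO3 had probe sets that passed in opposite directions. This occurred in 2 of 41 member genes with 2 or more probe sets (4.88%) and in 232 of 11734 such genes over the array (1.98%). These shares were not compared at equal numbers of probe sets per gene, and FBXO11 has 9 probe sets and FBXO3 has 8. FBXO11 is a receptor for BCL6. Of its 9 probe sets 4 fell, among them the brightest, which read 346, 336 and 337 in sh-Ctrl and 276, 279 and 279 in sh-PNO1 (log2 difference -0.29 ± 0.041 SE, limma adjusted p = 0.00122). The next, 11762420_at, read 319, 331 and 324 against 226, 235 and 211 and fell by 0.54. These bright probe sets separated the groups clearly. Another fell by 0.33, and 11731907_s_at fell by 0.60, a call lost without sh-Ctrl replicate 2 or 3 (adjusted p reaching 0.0798).

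FBXO11 probe set 11763230_at, the dimmest of the 9 on the control arrays, went the other way. It read 10.9, 10.4 and 10.1 in sh-Ctrl and 24.6, 23.3 and 23.2 in sh-PNO1 and rose by 1.18 ± 0.050 SE (limma adjusted p = 4.51e-06). Its control values lay between the means of the background probe sets named GC16 (8.64) and GC17 (11.7), and with 16 added to each intensity the rise was 0.58, so its size depends on how dim signal is treated. On that scale FBXO28 11740787_a_at (0.65) and FBXO22 11722204_a_at (0.61) rose by more. The remaining 4 stood between -0.11 and -0.019. With its probe sets averaged FBXO11 differed by -0.094 and did not pass (adjusted p = 0.0632). The 9 probe sets rest on 7 sequence records in the platform's table, and which transcripts each one detects was not examined here. FBXO3 fell at its brightest probe set, which read 147, 142 and 145 in sh-Ctrl and 112, 127 and 116 in sh-PNO1 (log2 difference -0.30 ± 0.056 SE, limma adjusted p = 0.00509), and rose at 11735110_at, which read 20.9, 25.3 and 22.9 against 29.0, 33.6 and 38.1 (0.54 ± 0.11 SE, limma adjusted p = 0.00655). Its other 6 probe sets stood between -0.11 and 0.21, and with the probe sets averaged FBXO3 differed by 0.078 (adjusted p = 0.205).

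**Figure D4:**
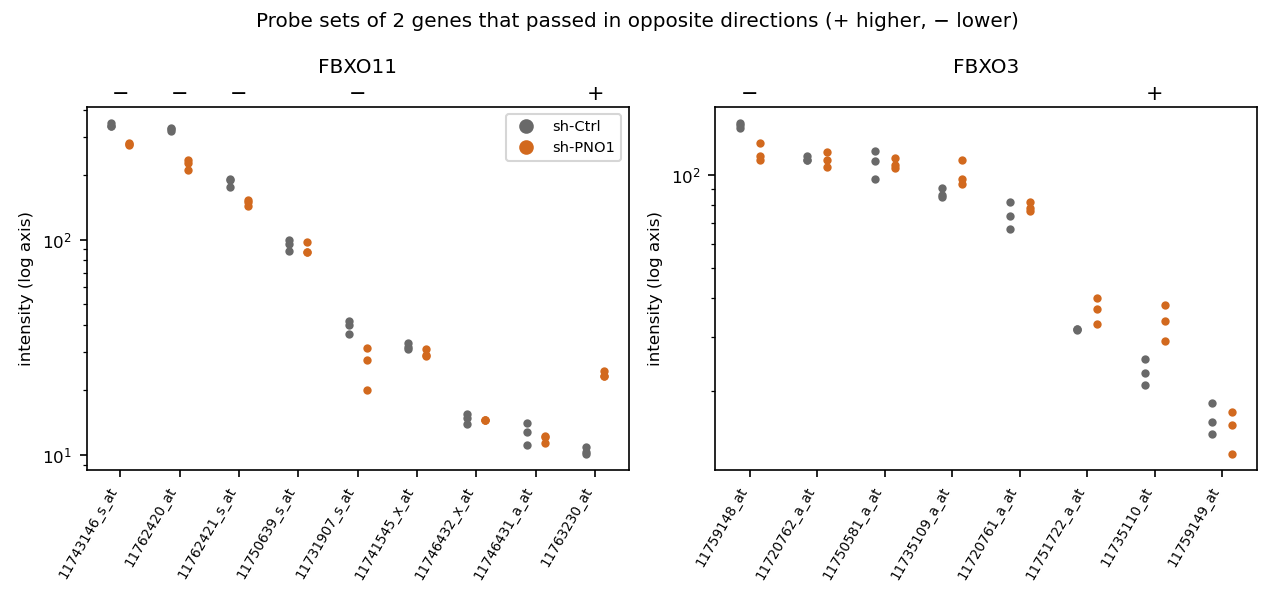
Intensity on each array (log axis; grey sh-Ctrl, orange sh-PNO1) for the 9 probe sets of FBXO11 and the 8 of FBXO3, in order of brightness, with + and − above those that passed as higher or lower. In FBXO11 the lower calls include the brightest probe sets and the higher call is the probe set that is dimmest on the control arrays, though not by its mean over all arrays, and in FBXO3 the brightest is lower.

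The other FBXO calls were of moderate size. FBXO30 fell by 0.40 on its only probe set, which read 153, 148 and 141 in sh-Ctrl and 115, 110.2 and 110.4 in sh-PNO1 (limma adjusted p = 0.000509), and FBXO33 fell at both of its probe sets, by 0.30 and 0.29. FBXO45, the receptor that works with MYCBP2 in neurons, rose at 3 of 3 probe sets, by 0.21 to 0.27. FBXO8 rose by 0.33, FBXO10 by 0.41 at 1 of 2 probe sets, FBXO21 by 0.32 and 0.22 at 2 of 4, and FBXO38 by 0.29 and 0.28 at 2 of 4. The FBXO8 probe set and both FBXO21 probe sets that passed carry the suffix _s_at. Without the suffixes _x_at and _s_at FBXO21 stood at 0.060 (limma adjusted p = 0.414). The FBXO10 probe set was dim, with group means of 14.95 and 19.84, between the background probe sets named GC17 (11.7) and GC18 (19.95). With 16 added to each intensity its rise was 0.21. FBXO31, a receptor induced by DNA damage, rose by 0.24, FBXO24 by 0.26 at 1 of 5, FBXO36 by 0.20 at 1 of 2 and FBXO34 by 0.15. Several of these calls were lost without a single array. That of FBXO31 was lost without sh-Ctrl replicate 2 or any sh-PNO1 array (adjusted p reaching 0.076), that of FBXO24 without replicate 1 or 2 of either group (0.104), that of FBXO36 without any array other than sh-Ctrl replicate 3 (0.156) and that of FBXO34 without any array other than sh-PNO1 replicate 1 (0.125). The smallest of FBXO45 was lost without replicate 2 or 3 of either group (0.0927) and the second of FBXO33 without sh-Ctrl replicate 2 or sh-PNO1 replicate 1 or 2 (0.0562). No probe set passed for FBXO7, linked to early-onset parkinsonism, or for FBXO15, FBXO16, FBXO39, FBXO40, FBXO41, FBXO42, FBXO43, FBXO46, FBXO47 and FBXO48.

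Across the 68 genes, 34 had at least 1 probe set that passed, 24 of them only higher, 8 only lower and 2 in both directions. Over all genes 39.6% had such a probe set, and 21.5% had only higher and 16.8% only lower ones, against 35.3% and 11.8% of the members. The other 34 genes had none, and their probe sets stood between -0.14 and 0.24. Of the 41 genes with 2 or more probe sets, 5 had all of them passing the same way (12.2%, against 11.0% of such genes over the array): FBXL5, FBXO17, FBXO25, FBXO33 and FBXO45. Both probe sets of FBXL5 carry the suffix _s_at and both of FBXO17 the suffix _x_at. For many members brightness limits what can be read. Of the 162 probe sets 0 exceeded all 23 background probe sets, whose means rise broadly with the GC content in their name from 2.53 to 773, while 149 exceeded the one named GC15 (6.19) and 98 the one named GC20 (33.3), among them 49 of the 58 that passed. The GC content of the member probes was not used here.

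The rest of the SCF pathway was read from 6 lists at the brightest probe set of each gene. Together 36 of 69 measured genes passed (52.2%, against 31.6% of all genes), 18 higher and 18 lower. The lists hold bright genes, and their share was not set against genes of equal brightness. The COP9 signalosome, which takes the ubiquitin-like protein NEDD8 off cullins, had 6 of 10 subunits passing, 4 higher and 2 lower. COPS8 read 239, 241 and 239 in sh-Ctrl and 467, 498 and 463 in sh-PNO1 and rose by 0.99 ± 0.046 SE (limma adjusted p = 6.07e-06), with both its probe sets higher. COPS7A read 287, 287 and 287 against 165, 163 and 168 and fell by 0.80 ± 0.040 SE (limma adjusted p = 8.59e-06), with 6 of 6 probe sets lower. COPS4 rose by 0.57 and COPS3 fell by 0.37, so subunits of the same complex moved both ways. Of the 4 rises the smallest, 0.14 for COPS9, was lost when any of the 6 arrays was left out (adjusted p reaching 0.0839).

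Among 13 genes that attach NEDD8 or exchange receptors, 4 rose and 2 fell. The rises were those of the neddylation cofactors DCUN1D2 (0.45), DCUN1D5 (0.32) and DCUN1D3 (0.29) and of SENP8 (0.39), which processes NEDD8. The rise of DCUN1D3 rests on 1 of 2 probe sets, and without the suffixes _x_at and _s_at its value was 0.033 (adjusted p = 0.668). The falls were those of DCUN1D4, a cofactor of the same family, by 0.25 with 3 of 5 probe sets lower, and of NAE1, a subunit of the NEDD8-activating enzyme, by 0.18. The DCUN1D4 call was lost without any array other than sh-PNO1 replicate 2 (adjusted p reaching 0.116) and without those suffixes (-0.052), the NAE1 call without sh-Ctrl replicate 1 (0.0548), and both with equal housekeeping means (0.0602 and 0.0658). DCUN1D1, another member of the DCUN1D family, stood at -0.039 at its brightest probe set, but 3 of its 4 probe sets passed as higher. CAND1, the exchange factor for F-box receptors, did not pass (-0.039, limma adjusted p = 0.6). Of 5 enzymes that hand on ubiquitin, the E2 enzyme CDC34, the classical partner of SCF, rose by 0.34, and the E2 enzyme UBE2G1 and the RBR-type ligase ARIH1, which works with neddylated cullins, fell by 0.55 and 0.29. The fall of UBE2G1 rests on 1 of 2 probe sets, and ARIH1 had 1 probe set higher and 1 lower of 3, with a mean over probe sets of 0.037 (adjusted p = 0.459). UBA1 stood at 0.096. The E2 enzyme UBE2R2 stood at -0.059 at its brightest probe set (limma adjusted p = 0.342), but 1 of its 2 probe sets passed as lower, at -0.89. Of 11 other cullins and adaptors, CUL4B rose by 0.48 with 3 of 3 probe sets higher, RNF7, the paralog of RBX1, by 0.33 with 4 of 4, and ELOC by 0.24, while CUL5 fell by 0.40. UBE2M, UBE2D1, UBE2D2, UBE2D3 and UBE2L3 were not analysed here.

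Of 9 F-box proteins under other symbols and SCF cofactors, CKS1B and TSPAN17 passed. CKS1B, the cofactor that SKP2 needs to bind CDKN1B, read 681, 714 and 673 in sh-Ctrl and 527, 559 and 526 in sh-PNO1 and fell by 0.36 ± 0.048 SE (limma adjusted p = 0.000912), with 3 of 3 probe sets lower, opposite to SKP2. TSPAN17 rose by 0.18, a call lost without replicate 2 or 3 of either group (adjusted p reaching 0.139), and LMO7 and NCCRP1 stood at 0.21 and 0.27 without passing.

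Among 21 genes that encode substrates of F-box receptors, 5 rose and 10 fell (71.4% passed, against 31.6% of all genes, 18.4% higher and 13.2% lower, with no comparison at equal brightness). These are transcripts, and the turnover of the proteins was not measured. JUN, an FBXW7 substrate, read 58.5, 56.8 and 56.7 in sh-Ctrl and 107, 124 and 105 in sh-PNO1 and rose by 0.96 ± 0.069 SE (limma adjusted p = 4.11e-05), with 4 of 4 probe sets higher. The checkpoint adaptor CLSPN fell by 0.69 at the brighter of its probe sets, and both passed. PER2, a clock protein, fell by 1.35 at its brightest probe set, but at only 1 of 5, and MCL1, a survival factor, by 0.93 at 2 of 6; without probe sets of the suffixes _x_at and _s_at the value of PER2 was 0.044 and that of MCL1 0.17, neither passing. CDKN1B, the substrate of SKP2, rose by 0.47 at the brighter of its probe sets, and both passed. Other falls were seen at every probe set of a gene. NFKBIA, which encodes an NF-kappaB inhibitor, stood at -0.48 with 3 of 3 probe sets lower. CDT1 (-0.33) and CDC25A (-0.26) also had 3 of 3 lower. RRM2 stood at -0.36 at its brightest probe set and at -2.93 at the other, and both passed. MYC stood at 0.12 (adjusted p = 0.126) and CTNNB1, the beta-catenin gene, at 0.040 at its brightest probe set, while 6 of its 8 probe sets were lower. IREB2 was not analysed here.

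**Figure D5:**
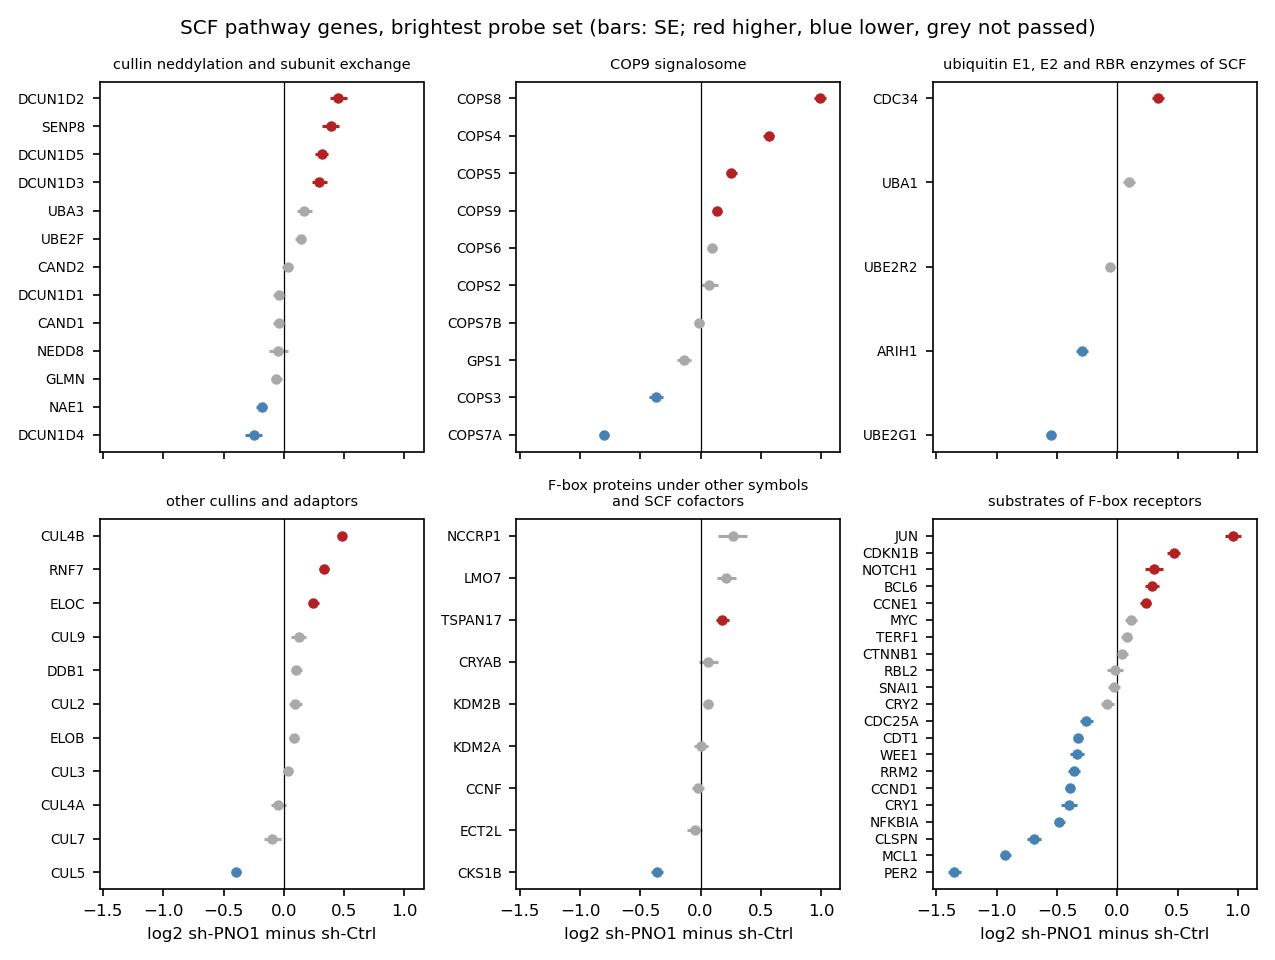
Log2 difference (sh-PNO1 minus sh-Ctrl) with its SE at the brightest probe set of 69 SCF pathway genes in 6 lists, red for higher, blue for lower and grey for not passed. COP9 subunits spread from -0.80 (COPS7A) to 0.99 (COPS8), and most substrate genes that passed lie below 0.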

How the data were processed

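RNA from 6 samples was measured, 3 sh-PNO1 and 3 sh-Ctrl, labelled as biotinylated cRNA from 100 ng of total RNA per the labels' protocols. For 49395 probe sets the authors deposited linear intensities, made with RMA per the submitters' processing notes. RMA combines the probes of each probe set after normalisation across arrays, so every value is relative to the rest of its array. Of the software, the background step and the build, none was given in the sources used here. Groups and replicate numbers came from the sample titles. Log2 was taken of the deposited intensity, with no pseudocount. Of the probe sets 102 were controls and left out, 44988 had 1 symbol in the platform's table, 1832 several and 2473 none listed. The gene identifiers of 44961 were found in the RefSeq table of GRCh38.p14, and 0 symbols changed.

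All 49293 probe sets were fitted in limma 3.58.1 (R 4.3.3; lmFit, eBayes, Benjamini-Hochberg) over 6 arrays without covariates. A gene is read at its probe set of highest mean log2. The members, the pathway lists and the tests were chosen with earlier results of these data known. Named in the text were PNO1, SKP1, CUL1, RBX1, SKP2, BTRC, FBXW7, FBXW11, FBXO4 and FBXO5; members that passed with a log2 difference of at least 0.5; those with opposite calls; and up to 4 genes per pathway list with the smallest adjusted p. Other names were added after their values were seen. The step was tested on simulated data for sh-PNO1 against sh-Ctrl with 49293 probe sets, 200 of them changed: at a log2 size of 0.5 it recovered 71.5% of them, and 2.72% of its calls were false. At a size of 1 these shares were 96.5% and 4.46%. The simulated noise was independent between probe sets, and a far larger share of probe sets passed in the real data (28.0%). The simulated shares therefore need not hold for these arrays. Alternatives were a replicate block, a trend with robust prior, array weights, 3 normalisations, 16 added before log2, the dimmest 30% left out, _x_at and _s_at probe sets left out, 1 or the averaged probe set per gene, an adjusted p under 0.01, treat against 0.5, and each array left out. The number of arrays limits the precision.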

Additional observations from a re-analysis of the deposited data

How the results depend on the processing

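Of the 58 member probe sets that passed, 41 kept the call under every alternative that gave them a value other than the stricter thresholds, 17 lost it in at least 1, and 0 changed sign. Of the 104 that did not pass, 16 gained a call somewhere. Without probe sets of the suffixes _x_at and _s_at, 36 member probe sets passed (27 higher, 9 lower), and 8711 of 34921 over the array. Fewer were tested, and of the genes with a call FBXL5, FBXO5, FBXO8 and FBXO17 then have no value. The calls of FBXO34, FBXO36 and FBXW11 11739229_a_at were lost although these probe sets were still tested. In a test against a log2 difference of 0.5 (limma treat), 2 member probe sets passed, FBXO4 lower and FBXO11 11763230_at, near background in sh-Ctrl, higher (1 higher, 1 lower). Over the array 963 of 49293 probe sets passed that test. By gene 1 member passed (0 higher, 1 lower), and 5 pathway genes did (2 higher, 3 lower). Leaving out 1 array at a time gave 48 to 53 member probe sets (34 to 36 higher, 14 to 17 lower), 24 to 26 genes (16 to 18 higher, 8 lower), 33 to 35 pathway genes (16 to 18 in each direction) and a PNO1 difference of -2.35 to -2.32. The calls over the array also fell in these fits, to 10834 to 11888 from 13791 of 49293 probe sets. With the replicate number as a block 58 member probe sets (42 higher, 16 lower), 28 genes and 34 pathway genes passed, and PNO1 stayed at -2.33. Over the array 12964 probe sets passed with the block. The block took the call from FBXO34, FBXO36 and the second probe set of FBXO45 and gave one to a probe set each of BTRC, FBXO3 and FBXO44. Deviations of same-numbered arrays from their group means correlated at -0.036, 0.097 and -0.032, and only number 2 correlated best with its own. With 3 arrays centred in each group, these values cannot exclude a weak pairing.

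Among genes that passed in at least one of the settings compared, averaging the probe sets of a gene turned the sign for BTRC (0.15, adjusted p = 0.0165), FBXO3 (0.078), ARIH1 (0.037), CTNNB1 (-0.18), CUL3 (-0.11) and DCUN1D1 (0.25, adjusted p = 0.00203). Leaving out the suffixes _x_at and _s_at turned it for CUL3 (-0.54), DCUN1D1 (0.19), MCL1 (0.17), PER2 (0.044) and UBE2G1 (0.14). The sign also turned, with no call in either setting, for 7 genes under averaging (FBXL7, FBXO16 and FBXO40 among the members) and for 5 without these suffixes (BTRC and FBXL18 among the members, at 0.21 and -0.046). The first setting reads the mean over probe sets and the second another probe set of the gene. With arrays shifted to equal means of housekeeping genes, 70 member probe sets passed (54 higher, 16 lower), more higher calls than the 42 without the shift and as many lower ones. Over the array the calls also rose with this shift, to 14965 from 13791 of 49293 probe sets. The median of all probe sets was then 0.053 in place of 0.012. Dim probe sets near background set the limit for the members in the lower range of intensity.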

Other observations

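The 4 probe sets that carry a member symbol together with a second symbol were kept out of the members. The probe set shared by ZNF395, a transcription factor gene, and FBXO16 read 119, 107 and 109.5 in sh-Ctrl and 151, 156 and 158 in sh-PNO1, and rose by 0.47 ± 0.053 SE (limma adjusted p = 0.000404). The 2 probe sets of FBXO16 alone stood at 0.0021 and -0.083. The one shared by SKP1 and the pseudogene SKP1P2 read 451, 476 and 477 against 522, 514 and 459.5 and overlapped between the groups (0.090, limma adjusted p = 0.319). The one shared by FBXL9P and LRRC29 stood at 0.19 and the one shared by FBXW10 and FBXW10B at -0.035, and neither passed. The log2 gap between the 3' and 5' control probe sets of ACTB was 2.25 on sh-PNO1 replicate 2 and 1.73 to 1.87 on the other arrays; leaving that array out is among the alternatives above.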
